A study of Mus musculus with 27 samples.

Results

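The alcohol and aldehyde dehydrogenases described here are 10 genes, chosen by name: Adh1, Adh4, Adh5 and Adh7 of the alcohol dehydrogenase family, and Aldh1a1, Aldh1a7, Aldh2, Aldh3a2, Aldh8a1 and Aldh9a1 of the aldehyde dehydrogenase family. They are 10 of the 43346 genes in the deposited count table, each found by its GENCODE M21 symbol. RNA from hepatocytes, the main metabolic cells of the liver, was sequenced in 27 libraries from female mice aged 12 weeks. The groups are 9 inbred strains with 3 libraries each, labelled as biological replicates. The strains are the wild-derived CAST/EiJ, PWK/PhJ and WSB/EiJ, and the classical laboratory strains A/J, NZO/HlLtJ (which becomes obese), NOD/ShiLtJ, DBA/2J, 129S1/SvImJ and C57BL/6J. All strains share sex, age, tissue and cell type, and no treatment, diet or time of collection is given in the sources used here. The study set gene expression beside histone modifications and DNA methylation to relate genetic differences between strains to both, and the question for these genes is how far their levels differ between strains.

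Alcohol dehydrogenases oxidise alcohols to aldehydes, and aldehyde dehydrogenases oxidise aldehydes to acids, both usually with NAD as the electron acceptor. In the liver the pathway clears ethanol by way of acetaldehyde and acetate, and the same families handle retinol and retinaldehyde, formaldehyde, lipid aldehydes and intermediates of amino acid and carnitine metabolism. Because several members are very abundant in hepatocytes, their RNA is measured with many reads.

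The members Aldh1a1 and Aldh1a7 are close copies, and their sequences matter for how their values are read. Their coding sequences, 1503 bases each in GENCODE M21, were identical at 1377 aligned bases (91.6%). The longest stretch they share without a mismatch was 100 bases, from coding base 757 to 856 in both, and a read that lies within it cannot be assigned to either gene by its letters.

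Aldh1a1 and Aldh1a7, shared coding stretch: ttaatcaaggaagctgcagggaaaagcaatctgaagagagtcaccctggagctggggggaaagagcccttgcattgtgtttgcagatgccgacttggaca

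The copies also resemble each other before their start sites. RefSeq (GRCm38.p6) gives Aldh1a1 a start site whose 250 preceding bases are chr19:20601718-20601967 on the plus strand, and Aldh1a7 one whose 250 preceding bases are chr19:20727557-20727806 on the minus strand. The windows were identical at 173 of 235 aligned bases (73.6%), and held a run of 65 identical bases that began 94 bases before the start in both, shown in capitals. The window of the other RefSeq start of Aldh1a1 shared a longest run of only 8 bases with Aldh1a7. Even so, 140 of its 225 aligned bases (62.2%) were identical, so the 73.6% is to be read beside that value.

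Aldh1a1: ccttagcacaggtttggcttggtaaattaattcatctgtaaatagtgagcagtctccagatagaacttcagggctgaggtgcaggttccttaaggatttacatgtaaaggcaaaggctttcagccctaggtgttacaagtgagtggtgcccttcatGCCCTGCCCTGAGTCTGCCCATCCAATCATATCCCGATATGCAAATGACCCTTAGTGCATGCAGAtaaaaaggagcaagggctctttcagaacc
Aldh1a7: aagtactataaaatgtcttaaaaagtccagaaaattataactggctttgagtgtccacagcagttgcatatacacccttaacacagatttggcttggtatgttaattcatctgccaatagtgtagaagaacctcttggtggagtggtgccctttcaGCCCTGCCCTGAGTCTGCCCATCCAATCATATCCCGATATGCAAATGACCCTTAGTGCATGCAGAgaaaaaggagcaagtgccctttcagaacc

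Adh4 is the alcohol dehydrogenase with the widest range between strains, and the stretch before its start is shown for that reason, at chr3:138415247-138415465 on the plus strand. The capitals mark AGGTCA, the core letters bound by many nuclear receptors, which began 133 bases before the RefSeq start, and CCAAT on the opposite strand, read as ATTGG. Another AGGTCA began 11 bases before the RefSeq start, inside what GENCODE annotates as transcript, and is not shown. Searched on both strands, AGGTCA was present in 14% of the 32851 mouse promoter windows of 250 bases and CCAAT in 33.8%. The windows come from the reference genome and not from the strains.

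Adh4: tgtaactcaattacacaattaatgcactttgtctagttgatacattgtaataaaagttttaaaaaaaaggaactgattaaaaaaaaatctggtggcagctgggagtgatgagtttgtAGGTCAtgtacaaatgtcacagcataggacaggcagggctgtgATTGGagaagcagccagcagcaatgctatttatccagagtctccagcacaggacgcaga

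Levels are given as CPM, counts scaled to the size of the library after TMM normalization, as mean ± SD over the 3 libraries of a strain. Library totals ran from 17015956 to 35078511 counts, so that 1 count was worth 0.0253 to 0.0515 CPM. The labelled cell type was checked on 10 hepatocyte marker genes, which all passed the filter on low counts, with albumin (Alb) at a mean of 132002 CPM. Markers of other liver cells were low but uneven: the summed level of 10 Kupffer cell genes (liver macrophages) ran from 35 to 442 CPM over the libraries, and that of 10 endothelial genes from 58.8 to 735.5 CPM. Of 7 bile duct genes only Sox9 (mean 1.42 CPM) and Spp1 (2.69 CPM) passed the filter on low counts, and Krt19 was at 0 in 13 libraries. Of 9 lymphocyte genes only Ptprc (2.64 CPM), a gene of all white blood cells, and Cd79b (0.208 CPM) passed, and Cd3e was at 0 in 11 libraries. Sox9, Spp1 and Ptprc differed between strains. So did all 10 Kupffer cell genes, all 10 endothelial genes and every hepatocyte gene but Tat and Hnf4a. PWK/PhJ replicate 1 had the highest Kupffer cell and endothelial sums.

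All 10 members passed the filter on low counts, and all 10 differed between strains at an adjusted p under 0.05 in edgeR's quasi-likelihood test over the 9 strains. Of all 14482 genes tested, 74.2% did so, so a strain difference as such was common. The members' median ratio of the highest to the lowest strain mean was 2.49, beside 2.27 over all genes tested, and 7 of the 10 reached a ratio of at least 2, as did 58.3% of all genes. Each strain was also compared with the mean of the other 8, and 32 of these 90 differences passed, beside 24.1% of such differences over all genes. Of the 360 comparisons of 2 strains (36 for each member), 126 passed, beside 23.4% of all such comparisons over all genes. The plot of levels by strain shows every library.

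**Figure D1:**
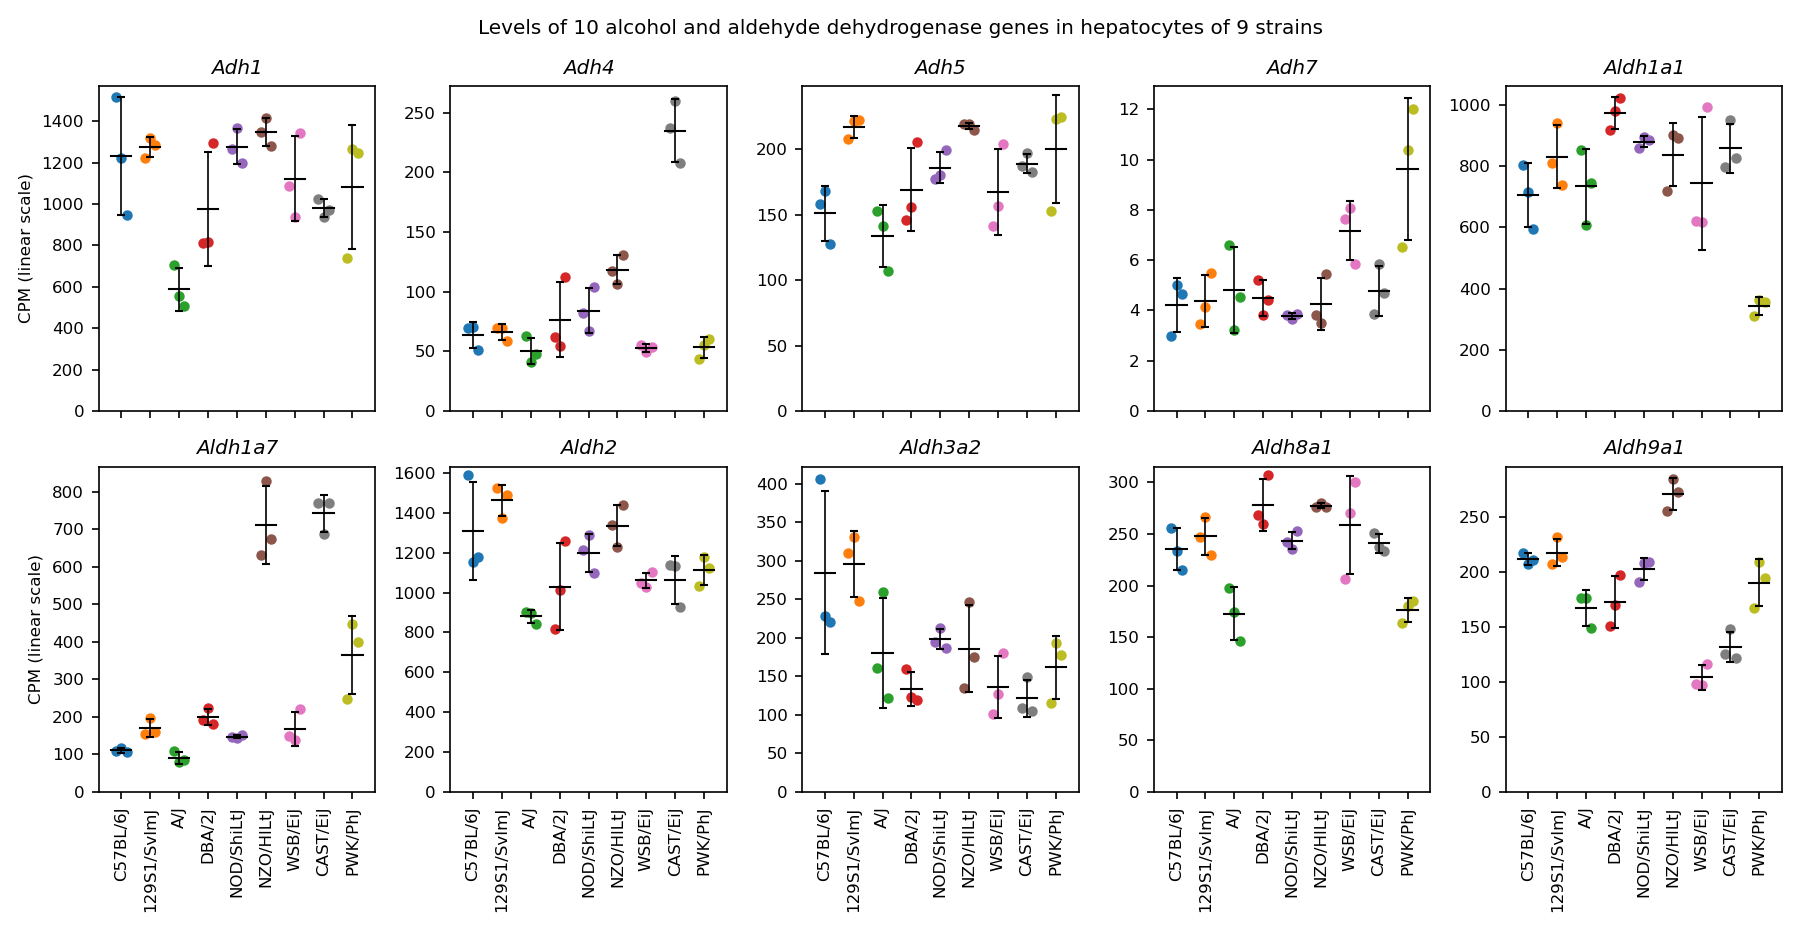
Level of each member (CPM, linear axis from 0) in the 27 libraries, grouped by strain; points are libraries, horizontal lines are strain means and error bars are SD (n = 3). Aldh1a7 is high in NZO/HlLtJ and CAST/EiJ, Adh4 in CAST/EiJ, Adh1 is low in A/J, Aldh1a1 low in PWK/PhJ and Aldh9a1 low in WSB/EiJ.

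Per kb of the longest basic protein-coding transcript, the scale on which genes can be compared, Adh1 was the highest member with a mean of 735.8 CPM per kb over the 27 libraries. Aldh1a1 (325.6 CPM per kb) and Aldh2 (300.6 CPM per kb) followed, then Aldh1a7 (145.5 CPM per kb), Adh5 (113.1 CPM per kb) and Aldh8a1 (104.8 CPM per kb). Adh4 (67.7 CPM per kb), Aldh9a1 (65.4 CPM per kb) and Aldh3a2 (61.1 CPM per kb) lay close together. Adh7 was lowest at 1.54 CPM per kb. By strain means, Adh1 was highest and Adh7 lowest in all 9 strains, but the order between them was not the same in each. Aldh1a7 lay above Adh5 and above Aldh8a1 only in NZO/HlLtJ, CAST/EiJ and PWK/PhJ, and in A/J it had 43.8 CPM per kb. Aldh1a1 lay above Aldh2 in 6 of the 9 strains, and in PWK/PhJ it had 146 CPM per kb beside 288 for Aldh2.

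The 4 alcohol dehydrogenases lie in a single cluster on the plus strand of chromosome 3 (GRCm38), in the order Adh7, Adh1, Adh4 and Adh5. Between Adh1 and Adh4 lie Adh6a and Adh6b, which averaged 0.1 and 0.8 counts a library and were not tested, and the pseudogene Adh6-ps1. The neighbours did not share a single order of strains: CAST/EiJ was highest for Adh4, NZO/HlLtJ for Adh1 and Adh5, and PWK/PhJ for Adh7. A/J was lowest for Adh1, Adh4 and Adh5, and NOD/ShiLtJ for Adh7.

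Adh1 (ENSMUSG00000074207, chr3:138260991-138290698) encodes the class I enzyme that does most of the oxidation of ethanol in the liver. It was low in A/J, where its libraries held 703.6, 553.8 and 504.9 CPM, a mean of 587.4 ± 104. The other 24 libraries lay between 739.1 CPM, in PWK/PhJ replicate 1, and 1519 CPM, in C57BL/6J replicate 1, so A/J did not overlap any other strain.

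In the fit, Adh1 was 1.96-fold lower in A/J than in the mean of the other 8 strains (log2 difference -0.97 ± 0.17 SE, adjusted p = 0.000198). All 8 comparisons that passed for Adh1 set A/J against another strain. The remaining strains ran from 975.9 ± 277 CPM in DBA/2J to 1347 ± 68.4 CPM in NZO/HlLtJ, and neighbours among them in the order of levels overlapped and did not pass the test of the pair. The Adh1 transcript has 4 of its stretches of 50 bases (0.277%) in common with Adh6-ps1. It shares 136 exon bases with the antisense gene Gm16559, and whether counting used strand is not given in the sources used here.

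Adh4 (ENSMUSG00000037797, chr3:138415466-138430892), the class II enzyme, which oxidises retinol and longer alcohols as well as ethanol, was high in CAST/EiJ. The CAST/EiJ libraries held 237.5, 260.2 and 207.8 CPM. The 3 NZO/HlLtJ libraries came next with 117.1, 106.8 and 131.1 CPM. CAST/EiJ overlapped no other strain, and NZO/HlLtJ overlapped only DBA/2J, whose libraries held 62.4, 54.4 and 112.5 CPM.

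The low end for Adh4 was shared by A/J, WSB/EiJ and PWK/PhJ. The A/J libraries held 62.7, 41 and 47.7 CPM, those of WSB/EiJ 55, 49.4 and 54 CPM, and those of PWK/PhJ 43.8, 55.5 and 60.5 CPM. These 3 strains overlapped one another, and each overlapped C57BL/6J and DBA/2J. C57BL/6J averaged 64 ± 10.9 CPM, 129S1/SvImJ 66.2 ± 6.33 CPM and NOD/ShiLtJ 84.2 ± 18.6 CPM.

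Against the other 8 strains, Adh4 was 3.46-fold higher in CAST/EiJ (log2 difference 1.79 ± 0.14 SE, adjusted p = 1.88e-10) and 1.6-fold higher in NZO/HlLtJ (0.67 ± 0.15 SE, adjusted p = 0.00224). It was lower in A/J (log2 difference -0.71), WSB/EiJ (-0.63) and PWK/PhJ (-0.62). CAST/EiJ exceeded NZO/HlLtJ itself by 0.99 ± 0.22 SE on the log2 scale (adjusted p = 0.0017). No other neighbours in the order passed the test of the pair, although NZO/HlLtJ and NOD/ShiLtJ did not overlap (log2 difference 0.49 ± 0.22 SE, adjusted p = 0.108). With the Kupffer cell and endothelial levels as covariates, the differences of NZO/HlLtJ (0.37, adjusted p = 0.0717) and PWK/PhJ (-0.21, adjusted p = 0.352) no longer passed. The PWK/PhJ difference was also lost without PWK/PhJ replicate 1 (-0.5, adjusted p = 0.072), and the WSB/EiJ difference without WSB/EiJ replicate 3 (-0.59, adjusted p = 0.0607). The A/J difference passed under every alternative run, but its size ran from -0.9 to -0.43 over them.

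The neighbouring pseudogene Adh6-ps1, singled out after its values were seen, was likewise higher in CAST/EiJ than in the other 8 strains, at 9.81 ± 3.76 CPM (adjusted p = 4.53e-15), and lower in A/J (adjusted p = 9.66e-05). Adh5, on the other side of Adh4, was at 189 ± 7.29 CPM in CAST/EiJ and did not pass the test there (log2 difference 0.09, adjusted p = 0.631). Adh1 in CAST/EiJ did not pass either (-0.15, adjusted p = 0.512).

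Adh5 (ENSMUSG00000028138, chr3:138443093-138455499) encodes the class III enzyme, which oxidises the glutathione adduct of formaldehyde and reduces S-nitrosoglutathione and which is made in nearly all tissues. Its strain means had a narrow range, from 133.8 ± 23.8 CPM in A/J to 217.9 ± 2.6 CPM in NZO/HlLtJ, a ratio of 1.63. The A/J libraries held 152.6, 141.7 and 107 CPM, and those of NZO/HlLtJ 219.6, 219.2 and 214.9 CPM. A/J overlapped C57BL/6J, DBA/2J and WSB/EiJ, and the lowest PWK/PhJ library (153 CPM) lay just above it.

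A/J was the only strain in which Adh5 passed against the other 8 (log2 difference -0.47 ± 0.13 SE, adjusted p = 0.0103), and all neighbours in the order overlapped and did not pass the test of the pair. The A/J difference was lost without A/J replicate 3 (-0.34, adjusted p = 0.149) and, narrowly, with the Kupffer cell and endothelial covariates (-0.39, adjusted p = 0.0508).

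Adh7 (ENSMUSG00000055301, chr3:138217760-138233382), the class IV enzyme known for retinol oxidation in the upper digestive tract, was scarce, with 69 to 361 counts a library. It was highest in PWK/PhJ, with 6.51, 10.4 and 12 CPM, and next in WSB/EiJ, with 7.63, 8.06 and 5.84 CPM. The other 7 strains had means from 3.78 ± 0.123 CPM in NOD/ShiLtJ to 4.8 ± 1.71 CPM in A/J. The highest A/J library, at 6.62 CPM, lay within the ranges of both PWK/PhJ and WSB/EiJ. Adh7 shares 108 exon bases, 2.85% of its own, with the antisense gene 0610031O16Rik.

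Against the other 8 strains, Adh7 was 2.07-fold higher in PWK/PhJ (log2 difference 1.05 ± 0.18 SE, adjusted p = 5.42e-05) and 1.49-fold higher in WSB/EiJ (0.57 ± 0.19 SE, adjusted p = 0.0278). All neighbours in its order of strains overlapped and did not pass the test of the pair. The WSB/EiJ difference was lost without WSB/EiJ replicate 2 (0.53, adjusted p = 0.121) and without WSB/EiJ replicate 3 (0.48, adjusted p = 0.182). In bulk RNA, fewer cells of a type and less RNA per cell cannot be told apart, which applies to every level given here.

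Of the aldehyde dehydrogenases, Aldh2 (ENSMUSG00000029455, chr5:121566027-121593824) encodes the mitochondrial enzyme that clears most of the acetaldehyde made from ethanol. Its strain means differed little, with a ratio of 1.66 between 129S1/SvImJ (1464 ± 78.6 CPM) and A/J (881.4 ± 32.8 CPM). The A/J libraries held 901.6, 899.1 and 843.6 CPM, and those of 129S1/SvImJ 1526, 1376 and 1489 CPM. A/J and 129S1/SvImJ did not overlap, but the lowest DBA/2J library (818.6 CPM) lay below all of A/J, and C57BL/6J replicate 1 (1592 CPM) lay above all of 129S1/SvImJ.

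Aldh2 was 1.31-fold higher in 129S1/SvImJ (log2 difference 0.39 ± 0.11 SE, adjusted p = 0.0188) and 1.35-fold lower in A/J (-0.43 ± 0.12 SE, adjusted p = 0.0113) than in the mean of the other 8. Both calls were lost with the Kupffer cell and endothelial covariates (0.3, adjusted p = 0.115, and -0.36, adjusted p = 0.0644). The A/J call was lost without A/J replicate 3 (-0.41, adjusted p = 0.0721). The 129S1/SvImJ call was lost without 129S1/SvImJ replicate 1 (0.36, adjusted p = 0.115), without 129S1/SvImJ replicate 3 (0.38, adjusted p = 0.0736) and with no filter on low counts (0.38, adjusted p = 0.0756). Aldh2 shares 130 exon bases, 2.54% of its own, with a gene model on the opposite strand.

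Aldh1a1 and Aldh1a7 had the widest ranges of strain means among the 6 aldehyde dehydrogenase members, and the strains did not rank alike for both. Aldh1a1 (ENSMUSG00000053279, chr19:20492715-20643465, plus strand) encodes the cytosolic enzyme that oxidises retinaldehyde to retinoic acid, and Aldh1a7 (ENSMUSG00000024747, chr19:20692953-20727562, minus strand) its close relative, 49487 bases away. In all 27 libraries the deposited counts of both genes were not whole numbers but their sum was (within 0.01), while the counts of the other 8 members were whole in every library. Of the stretches of 50 bases in the transcripts, 151 are common to both genes, which is 6.54% of those of Aldh1a1 and 7.49% of those of Aldh1a7.

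Aldh1a1 was low in PWK/PhJ, where the libraries held 310.9, 364.3 and 355.6 CPM. All other libraries lay between 594.9 CPM, in C57BL/6J, and 1022 CPM, in DBA/2J, so PWK/PhJ stood apart from all other strains. The DBA/2J libraries held 917.2, 982.3 and 1022 CPM, and overlapped 129S1/SvImJ, WSB/EiJ and CAST/EiJ.

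In the fit Aldh1a1 was 2.38-fold lower in PWK/PhJ than in the other 8 strains (log2 difference -1.25 ± 0.15 SE, adjusted p = 3.74e-07), and all 8 comparisons that passed for it set PWK/PhJ against another strain. It was 1.36-fold higher in DBA/2J (0.44 ± 0.13 SE, adjusted p = 0.0213). The DBA/2J call was lost without any of its own libraries: without DBA/2J replicate 2 the difference was 0.48 (adjusted p = 0.0568), without DBA/2J replicate 3 it was 0.44 (adjusted p = 0.0967), and without DBA/2J replicate 4 it was 0.4 (adjusted p = 0.0895).

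Aldh1a7 had the widest range of the 10 members, with a ratio of 8.2 between CAST/EiJ and A/J. The CAST/EiJ libraries held 769.1, 686.6 and 771.7 CPM, those of NZO/HlLtJ 631.6, 828.9 and 673.7 CPM, and those of PWK/PhJ 248.9, 447.9 and 400 CPM. CAST/EiJ and NZO/HlLtJ overlapped each other and no other strain, and PWK/PhJ stood below them and above the other 6 strains without overlap.

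The other 6 strains ran from 90.5 ± 16 CPM in A/J through 110.7 ± 5.94 in C57BL/6J, 147 ± 3.91 in NOD/ShiLtJ, 168.5 ± 44.9 in WSB/EiJ and 170.2 ± 23.5 in 129S1/SvImJ to 199.3 ± 21.1 CPM in DBA/2J. The A/J libraries held 108.6, 78.5 and 84.4 CPM. Among these 6 strains no neighbours in the order of Aldh1a7 levels passed the test of the pair, although the libraries of NOD/ShiLtJ and C57BL/6J did not overlap (log2 difference 0.41 ± 0.19 SE, adjusted p = 0.135). NZO/HlLtJ exceeded PWK/PhJ (log2 difference 0.96 ± 0.2 SE, adjusted p = 0.000762) and PWK/PhJ exceeded DBA/2J (0.88 ± 0.2 SE, adjusted p = 0.00183).

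Against the other 8 strains, Aldh1a7 was 3.79-fold higher in CAST/EiJ (log2 difference 1.92 ± 0.12 SE, adjusted p = 4.34e-12), 3.61-fold higher in NZO/HlLtJ (1.85 ± 0.12 SE, adjusted p = 3.53e-11) and 1.71-fold higher in PWK/PhJ (0.77 ± 0.14 SE, adjusted p = 8.23e-05). It was 2.82-fold lower in A/J and 2.25-fold lower in C57BL/6J, with smaller decreases in NOD/ShiLtJ (log2 difference -0.71), WSB/EiJ (-0.49) and 129S1/SvImJ (-0.47). The 129S1/SvImJ call was lost without 129S1/SvImJ replicate 1 (-0.4, adjusted p = 0.185) or replicate 3 (-0.42, adjusted p = 0.133). The WSB/EiJ call was lost without WSB/EiJ replicate 2 (-0.4, adjusted p = 0.136) or replicate 3 (-0.36, adjusted p = 0.193).

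Set against each other, the copies fell into distinct patterns by strain. Aldh1a7 held 10.2% to 19.3% of the pair's counts in every library of A/J, C57BL/6J, NOD/ShiLtJ, 129S1/SvImJ, DBA/2J and WSB/EiJ. It held 45.9% ± 2.54 in NZO/HlLtJ, 46.4% ± 3.92 in CAST/EiJ and 50.8% ± 5.64 in PWK/PhJ, with no library of these strains under 41.9%. PWK/PhJ had a like share at a lower sum, 709.2 ± 132 CPM for both genes together, beside 1601 ± 35.4 CPM in CAST/EiJ and 1550 ± 190 CPM in NZO/HlLtJ.

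**Figure D2:**
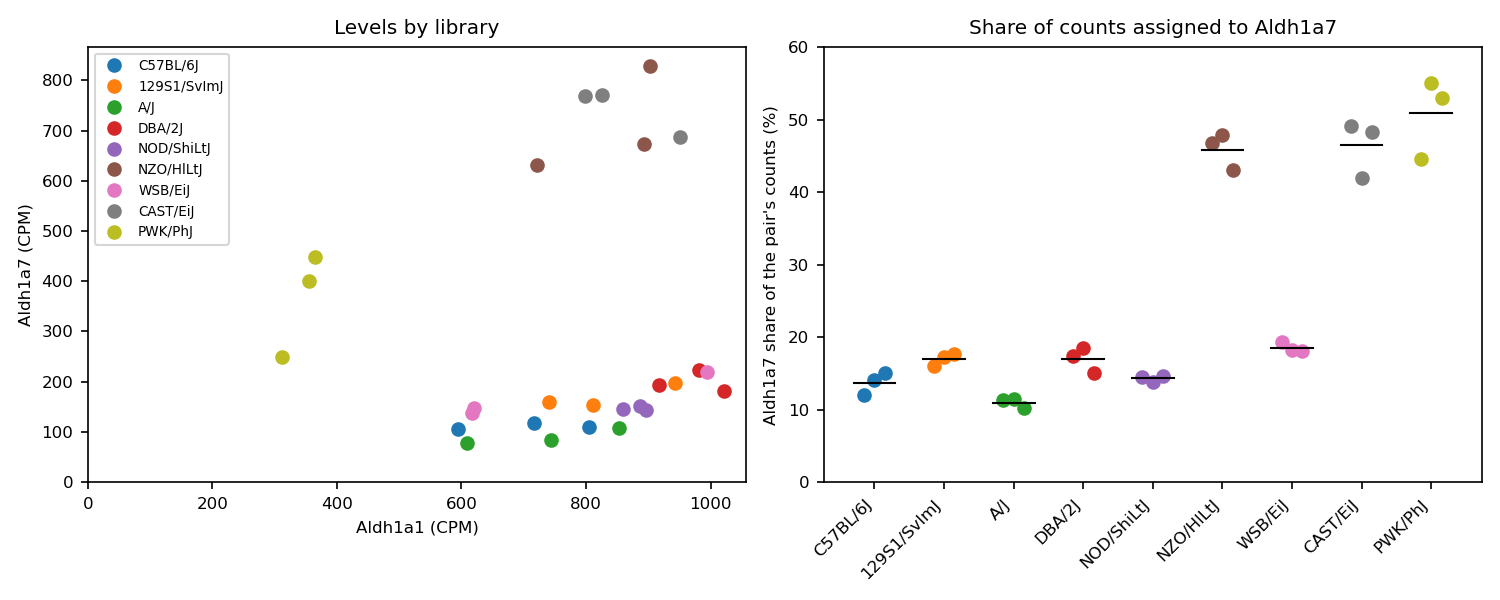
Left, level of Aldh1a7 against level of Aldh1a1 (CPM, linear axes) in each of the 27 libraries, coloured by strain; right, the share of the counts of both genes that was assigned to Aldh1a7 (%), with points for libraries and lines for strain means. NZO/HlLtJ, CAST/EiJ and PWK/PhJ lie between 41.9% and 55.1%, and every library of the other 6 strains at or below 19.3%.

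With the counts of both genes summed, which removes any effect of how reads were divided between them, the pair still differed between strains (adjusted p = 2.49e-05). The sum was higher in CAST/EiJ (log2 difference 0.72 ± 0.13 SE, adjusted p = 0.000101) and in NZO/HlLtJ (0.66 ± 0.13 SE, adjusted p = 0.000534). It was lower in PWK/PhJ (-0.61 ± 0.15 SE, adjusted p = 0.0021), the direction of Aldh1a1 and opposite to that of Aldh1a7. The A/J (-0.36, adjusted p = 0.0623) and C57BL/6J (-0.38, adjusted p = 0.0676) sums did not pass, nor did those of DBA/2J (0.21, adjusted p = 0.374), WSB/EiJ (-0.2, adjusted p = 0.33), 129S1/SvImJ (-0.05, adjusted p = 0.863) and NOD/ShiLtJ (0, adjusted p = 1). Each of these 6 strains had passed for Aldh1a7 or, in DBA/2J, for Aldh1a1. The genome each strain's reads were matched to is not stated by strain in the sources used here, and its part in the divided counts was not tested.

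Aldh3a2 (ENSMUSG00000010025, chr11:61223417-61267464) encodes the enzyme of the endoplasmic reticulum that oxidises long-chain fatty aldehydes. It was highest in 129S1/SvImJ, with 309.7, 330.6 and 248.1 CPM, and in C57BL/6J, with 406.5, 227.9 and 220 CPM. It was lowest in CAST/EiJ, with 109.5, 149.2 and 105.5 CPM. Spread within strains was wide for this gene, with a median SD of 25.4% of the strain mean: the A/J libraries, at 160.6, 260.1 and 121.6 CPM, reached from CAST/EiJ levels to those of 129S1/SvImJ.

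Aldh3a2 was 1.75-fold higher in 129S1/SvImJ (log2 difference 0.81 ± 0.2 SE, adjusted p = 0.00555), 1.67-fold higher in C57BL/6J (0.74 ± 0.2 SE, adjusted p = 0.0104) and 1.56-fold lower in CAST/EiJ (-0.64 ± 0.22 SE, adjusted p = 0.0268) than in the other 8 strains. Without C57BL/6J replicate 1, its highest library, the C57BL/6J difference fell to 0.39 (adjusted p = 0.22). The 129S1/SvImJ difference missed without 129S1/SvImJ replicate 2 (0.72, adjusted p = 0.0605), and the CAST/EiJ difference without CAST/EiJ replicate 1 (-0.57, adjusted p = 0.129) or replicate 5 (-0.55, adjusted p = 0.137). With the Kupffer cell and endothelial covariates the C57BL/6J (0.64, adjusted p = 0.202) and CAST/EiJ (-0.54, adjusted p = 0.0992) calls were lost.

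Aldh8a1 (ENSMUSG00000037542, chr10:21377291-21396585), an enzyme of the kynurenine route of tryptophan breakdown that also accepts retinaldehyde, had the narrowest range of the members, a ratio of 1.61. It was low in A/J, with 197.3, 174.5 and 145.8 CPM, and in PWK/PhJ, with 163.2, 180.1 and 185.3 CPM. The other 7 strains had means from 235 ± 20.3 CPM in C57BL/6J to 278.2 ± 25.2 CPM in DBA/2J, and their lowest library, in WSB/EiJ, held 206.3 CPM. A/J and PWK/PhJ therefore overlapped each other and no other strain.

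Aldh8a1 was 1.41-fold lower in A/J (log2 difference -0.49 ± 0.11 SE, adjusted p = 0.00149) and 1.37-fold lower in PWK/PhJ (-0.46 ± 0.11 SE, adjusted p = 0.00164) than in the other 8 strains, and all 14 comparisons that passed set A/J or PWK/PhJ against one of the other 7. The PWK/PhJ call was lost with the Kupffer cell and endothelial covariates (-0.25, adjusted p = 0.153). NZO/HlLtJ was called higher (0.28 ± 0.1 SE, adjusted p = 0.0401), but that call held in only 19 of the 27 fits that left out a library, with an adjusted p of up to 0.146. It was lost without any of NZO/HlLtJ replicates 1 to 3, C57BL/6J replicate 4, 129S1/SvImJ replicate 3, DBA/2J replicate 2 and CAST/EiJ replicates 4 and 5, at differences of 0.27 to 0.29.

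Aldh9a1 (ENSMUSG00000026687, chr1:167349991-167368532), which oxidises trimethylaminobutyraldehyde in the synthesis of carnitine, was high in NZO/HlLtJ and low in WSB/EiJ and CAST/EiJ. The NZO/HlLtJ libraries held 255.5, 284.9 and 272.8 CPM, those of WSB/EiJ 98.4, 97 and 116.7 CPM, and those of CAST/EiJ 125.2, 147.7 and 122.1 CPM. NZO/HlLtJ and WSB/EiJ overlapped no other strain, and CAST/EiJ lay between WSB/EiJ and the lowest A/J library (148.6 CPM). The other 6 strains had means from 167.2 ± 16.1 CPM in A/J to 217.5 ± 12.5 CPM in 129S1/SvImJ.

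Aldh9a1 was 1.59-fold higher in NZO/HlLtJ (log2 difference 0.67 ± 0.09 SE, adjusted p = 5.17e-06), 1.84-fold lower in WSB/EiJ (-0.88 ± 0.1 SE, adjusted p = 5.84e-07) and 1.41-fold lower in CAST/EiJ (-0.5 ± 0.1 SE, adjusted p = 0.000356) than in the other 8 strains. Of its 36 comparisons of 2 strains 19 passed, none of them between neighbours in its order. The libraries of NZO/HlLtJ and 129S1/SvImJ (log2 difference 0.32, adjusted p = 0.0771), of A/J and CAST/EiJ (0.34, adjusted p = 0.0552) and of CAST/EiJ and WSB/EiJ (0.34, adjusted p = 0.0588) nevertheless did not overlap. A higher level in 129S1/SvImJ (0.31, adjusted p = 0.0216) was lost without 129S1/SvImJ replicate 1 (0.35, adjusted p = 0.0578), replicate 2 (0.27, adjusted p = 0.153) or replicate 3 (0.33, adjusted p = 0.0597). The call in C57BL/6J (0.27, adjusted p = 0.0466) held in only 6 of the 27 fits that left out a library, those without A/J replicate 1, DBA/2J replicate 4, WSB/EiJ replicate 4, CAST/EiJ replicate 4 and PWK/PhJ replicates 1 and 2, with an adjusted p of up to 0.161 in the rest.

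By strain, A/J and NZO/HlLtJ stood at opposite ends. In A/J, 6 of the 10 members were lower than in the other 8 strains (Adh1, Adh4, Adh5, Aldh1a7, Aldh2 and Aldh8a1) and none was higher, where 11.6% of all genes tested were called lower and 15.9% higher. In NZO/HlLtJ, 4 were higher (Adh4, Aldh1a7, Aldh8a1 and Aldh9a1) and none lower, where 14.8% of all genes were called higher and 12.9% lower. The members' median log2 difference was -0.45 in A/J and 0.3 in NZO/HlLtJ, beside 0.02 over all genes in both.

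The A/J count fell to 4 without A/J replicate 3, where the calls over all genes, in either direction, fell from 3989 to 1973. With the Kupffer cell and endothelial covariates the A/J count was 4 and the NZO/HlLtJ count 2, and the calls over all genes fell as well, to 2621 in A/J and from 4002 to 1720 in NZO/HlLtJ. The summed Kupffer cell level was 136.1 to 292.4 CPM in A/J and 36.3 to 94.3 CPM in NZO/HlLtJ, and the summed endothelial level was 123.9 to 249.3 CPM and 58.8 to 104.1 CPM. The summed level of 11 stellate cell genes was 96 to 169 CPM in A/J and 34.7 to 61 CPM in NZO/HlLtJ. The summed hepatocyte markers were also higher in A/J, at 241492 to 329138 CPM, than in NZO/HlLtJ, at 119689 to 123709 CPM, the reverse of the members. Most of that sum is albumin, which averaged 132002 CPM over the libraries. As a mean log2 CPM, which weighs the marker genes alike, the hepatocyte list was at 12.33 ± 0.2 in A/J and 11.65 ± 0.19 in NZO/HlLtJ. The part of the stellate cell and hepatocyte levels in the members' values was not tested.

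In the remaining strains members moved in both directions or hardly at all. PWK/PhJ had 2 members higher (Adh7 and Aldh1a7) and 3 lower (Adh4, Aldh1a1 and Aldh8a1), where 19.4% of all genes were called higher and 14.8% lower. CAST/EiJ had 2 higher (Adh4 and Aldh1a7) and 2 lower (Aldh3a2 and Aldh9a1), beside 20.1% and 17.8% of all genes. WSB/EiJ had 1 higher (Adh7) and 3 lower (Adh4, Aldh1a7 and Aldh9a1), beside 15.5% and 9.25%.

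In 129S1/SvImJ, 3 members were higher (Aldh2, Aldh3a2 and Aldh9a1) and Aldh1a7 was lower, beside 10.5% of all genes higher and 7.86% lower. In C57BL/6J, 2 were higher (Aldh3a2 and Aldh9a1) and Aldh1a7 was lower, beside 11.6% and 6.5%. DBA/2J had 1 member higher, Aldh1a1, beside 9.5% of all genes higher and 3.77% lower. NOD/ShiLtJ had 1 lower, Aldh1a7, beside 5.72% of all genes lower and 9.2% higher. With the Kupffer cell and endothelial covariates the PWK/PhJ counts became 4 higher and 1 lower, while the calls over all genes went from 4950 to 4317. Those of 129S1/SvImJ became 1 higher and 2 lower (all genes 2663 to 1599), those of NOD/ShiLtJ 0 higher and 2 lower (2162 to 2685), and those of CAST/EiJ 2 higher and 1 lower (5488 to 4693).

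Some of these counts changed when single libraries were left out, and in most of these fits fewer of all genes were called too. The 129S1/SvImJ count of 3 higher fell to 1 without any one of its replicates 1, 2 or 3, and its count of 1 lower to 0 without replicate 1 or 3, where the calls over all genes fell from 2663 to 1444, 1455 and 1953. The C57BL/6J count of 2 higher fell to 0 without its replicate 1 (all genes 2616 to 3032) and to 1 without replicate 2 (1506) or 4 (1350). It also fell to 1 without 18 of the 24 libraries of other strains, each time by the loss of Aldh9a1, with 2455 to 3208 genes called over the 24. The DBA/2J count of 1 higher fell to 0 without any one of its replicates 2, 3 or 4 (all genes 1922 to 1276, 1226 and 1945), and rose to 2 without A/J replicate 1 or WSB/EiJ replicate 4. In WSB/EiJ the count of 1 higher fell to 0 without replicate 2 or 3 (all genes 3581 to 2737 and 2368). That of 3 lower fell to 2 without replicate 2 and to 1 without replicate 3. The CAST/EiJ count of 2 lower fell to 1 without replicate 1 or 5 (all genes 5488 to 4020 and 4300). The PWK/PhJ count of 3 lower fell to 2 without replicate 1 (all genes 4950 to 3942). The NZO/HlLtJ count of 4 higher fell to 3 without any one of its replicates 1, 2 or 3 (all genes 4002 to 2087, 2086 and 3114). It ran from 3 to 6 without single libraries of other strains, where 3763 to 4498 genes were called. By DESeq2 it was 6, with 4473 genes called.

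**Figure D3:**
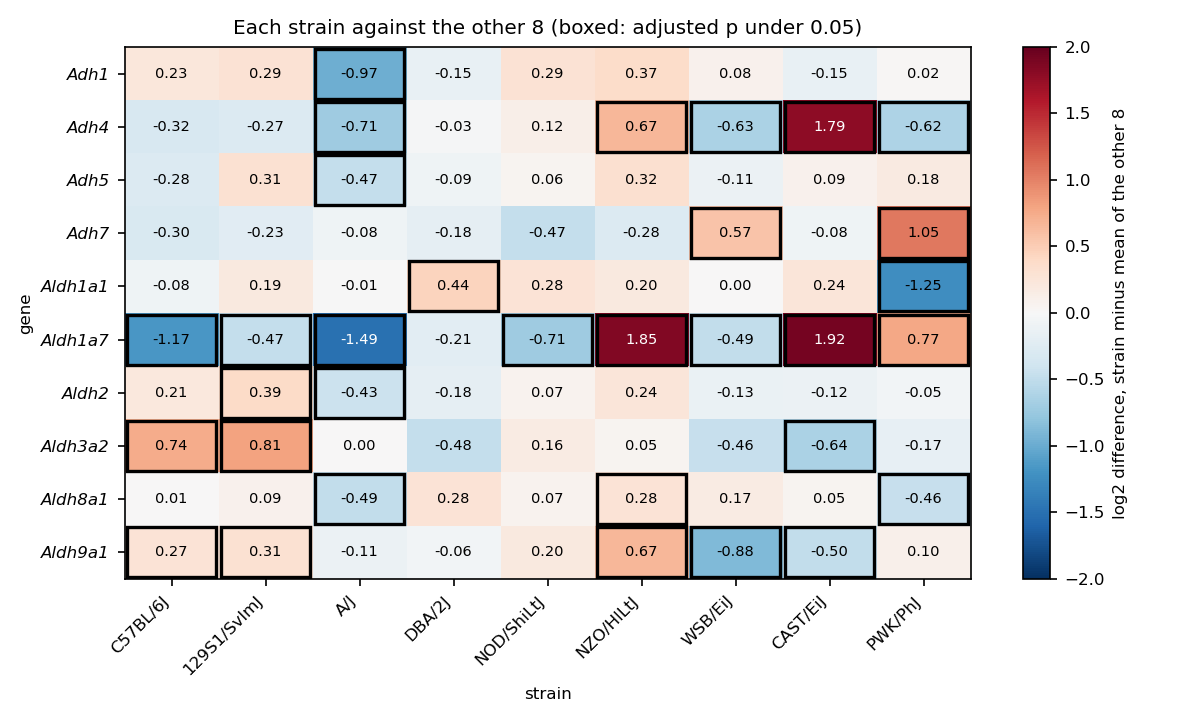
Log2 difference of each strain from the mean of the other 8 for each member (colour and printed value); boxes mark an adjusted p under 0.05 in edgeR's quasi-likelihood test over all genes. The A/J column holds 6 boxes, all negative, and the NZO/HlLtJ column 4, all positive.

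Within strains the members tended to move together from library to library. Over the 27 libraries, each taken relative to its strain mean, 42 of the 45 correlations between members were positive with a median of 0.48. Over the 9 strain means the median was 0.16. These are descriptions, since members of a library share its depth, its scaling and its mix of cells. Adh1 and Adh5 had the highest correlation within strains (0.84), and Adh1 and Aldh2 the highest across strain means (0.87).

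The library that deviated most was PWK/PhJ replicate 1, in which all 10 members lay below their strain mean, by 0.32 on average on the log2 scale. In the same library the Kupffer cell markers lay above their strain mean by 1 and the endothelial markers by 1.04. All 10 members lay above the strain mean in both other PWK/PhJ libraries, where those markers lay below it. On average those libraries must lie on the opposite side, since the strain mean is taken over the same libraries. In DBA/2J replicate 4, Adh4 was above its strain mean by 0.63 and Adh1 by 0.44, while the Kupffer cell markers were at -1.42 and the endothelial markers at -0.97, but Aldh1a7 (-0.12) and Aldh3a2 (-0.16) lay below the mean. Some other libraries did not run opposite to these markers. In CAST/EiJ replicate 4, 7 members lay above the strain mean with the Kupffer cell markers at 0.18 and the endothelial markers at 0.47, and in NZO/HlLtJ replicate 2, 7 did so with the Kupffer cell markers at 0.71. In CAST/EiJ replicate 1 the endothelial markers were at -0.97 and the members at -0.03 on average. The part of these cells in the members' values was not tested beyond the fit with both levels as covariates.

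**Figure D4:**
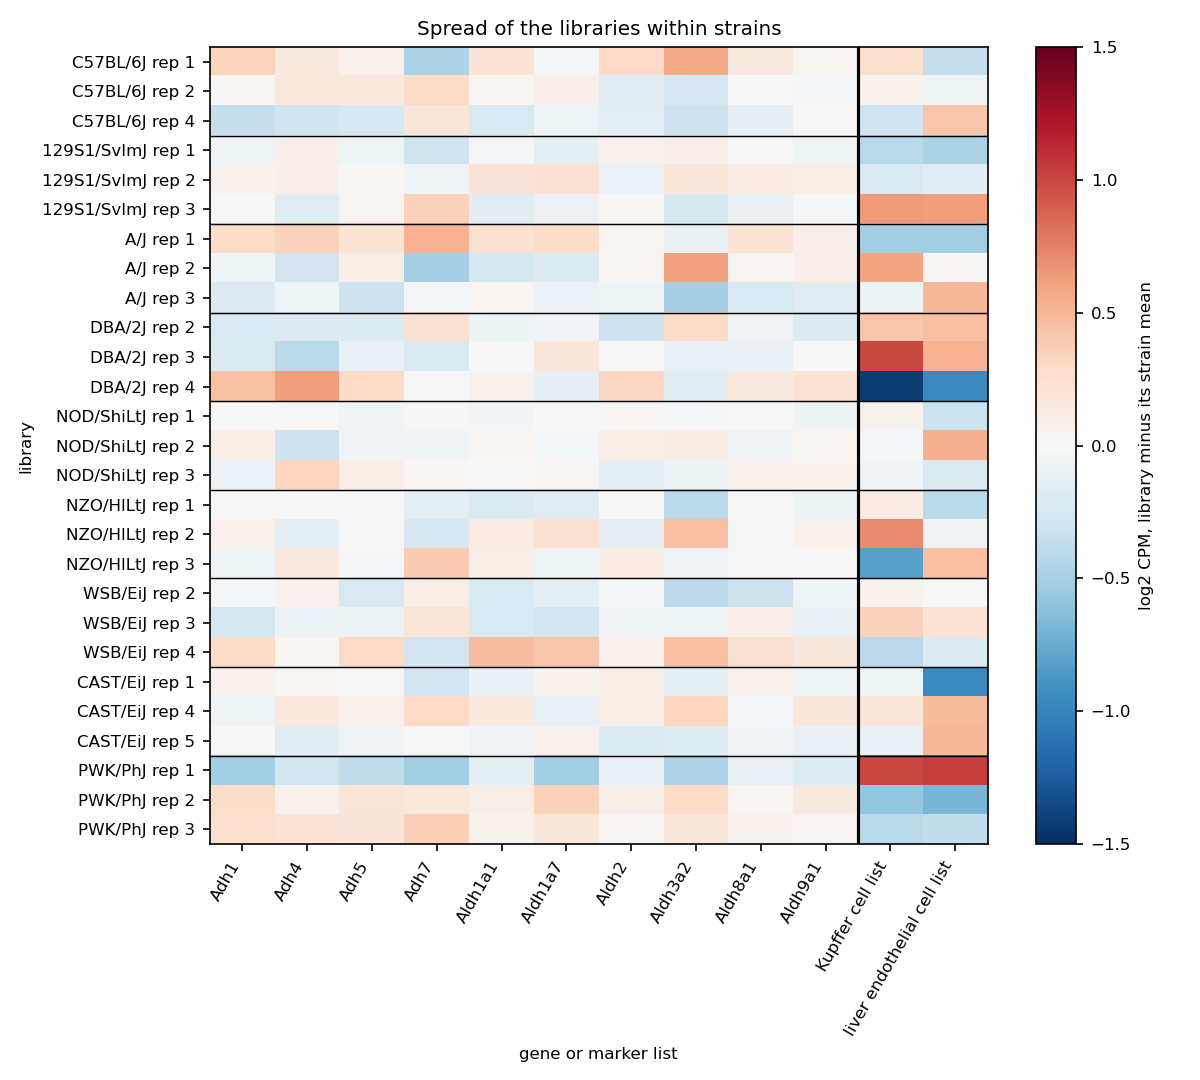
Deviation of each library from its strain mean (log2 CPM) for the 10 members and, right of the thick line, for the means of the Kupffer cell and endothelial marker lists; horizontal lines separate strains. PWK/PhJ replicate 1 is below its strain mean for all 10 members and above it for both marker lists.

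The genes whose 9 strain means most resembled those of a member were taken from the 4859 to 4861 strain-dependent genes averaging at least 10 CPM and are named as a description of likeness over 9 strains. Adh1 was most like Ivd (Pearson's r = 0.97, Spearman's rho = 0.95), which encodes the isovaleryl-CoA dehydrogenase of leucine breakdown, and Adh5 most like Napa (r = 0.97, rho = 0.95). Adh4 was most like Klhl22 (r = 0.97, rho = 0.92), Aldh1a7 most like Memo1 (r = 0.94, rho = 0.92) and Aldh2 most like Hp1bp3 (r = 0.94, rho = 0.97). Aldh9a1 was most like Stard4 (r = 0.94, rho = 0.9), a cholesterol transfer protein, Aldh8a1 most like Dnajb2 (r = 0.94, rho = 0.88), and Aldh3a2 most like Pex11a (r = 0.88, rho = 0.92), a peroxisomal membrane protein.

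Adh7 and Gstk1 had r = 0.96 but rho = 0.53, and Aldh1a1 and Mrps17 had r = 0.97 and rho = 0.82. Aldh1a1 and Aldh1a7 themselves had r = -0.06 over the strain means and 0.7 within strains.

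The other genes of the pathway, taken from lists by function, are given beside the share of all genes tested that differed between strains (74.2%) and their median ratio (2.27). Of the other alcohol dehydrogenases only Adhfe1, the mitochondrial hydroxyacid-oxoacid transhydrogenase, was tested and it passed, from 36.5 ± 7.88 CPM in A/J to 73.8 ± 4.13 CPM in NZO/HlLtJ. Of 15 other aldehyde dehydrogenases 12 were tested and 11 passed, with a median ratio of 2.71 between the highest and lowest strain means. In A/J 6 of the 12 were lower and 1 higher than in the other 8 strains, where 11.6% of all genes were lower and 15.9% higher. In PWK/PhJ 6 were higher and 1 lower (all genes 19.4% and 14.8%), in NZO/HlLtJ 4 were higher and 1 lower (14.8% and 12.9%), and in 129S1/SvImJ 4 were higher and 0 lower (10.5% and 7.86%). Aldh1b1, a mitochondrial relative of Aldh2, had the largest test statistic among them, with 296.3 ± 81.3 CPM in WSB/EiJ and 44.6 ± 8.49 CPM in NOD/ShiLtJ. In PWK/PhJ the summed endothelial markers were 216.4 to 735.5 CPM and the summed Kupffer cell markers 150.4 to 442 CPM. The part of these cells in the PWK/PhJ counts of this list and of those below was not tested.

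Of the genes for other routes of ethanol oxidation and for the use of acetate, 8 of 9 were tested and all 8 passed, with a median ratio of 2.35. In A/J, where 11.6% of all genes were lower and 15.9% higher, 4 were lower and 1 higher, and in NZO/HlLtJ, where 14.8% of all genes were higher and 12.9% lower, 4 were higher and 2 lower. Acss3, an acyl-CoA synthetase of mitochondria, had 55.4 ± 15.1 CPM in PWK/PhJ and 10.6 ± 0.922 CPM in A/J.

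Of the genes that handle formaldehyde, lipid aldehydes and other carbonyls, 19 of 20 were tested and 18 passed, with a median ratio of 3.28. In A/J 7 were lower and 2 higher (all genes 11.6% and 15.9%), in NZO/HlLtJ 9 were higher and 3 lower (14.8% and 12.9%), and in PWK/PhJ 8 were higher and 3 lower (19.4% and 14.8%). Aox3, an aldehyde oxidase of the liver, had 375.1 ± 172 CPM in CAST/EiJ and 47.8 ± 5.57 CPM in DBA/2J. Its neighbour Aox1 had 184.9 ± 48.3 CPM in PWK/PhJ and 37.6 ± 6.17 CPM in DBA/2J. Akr1c19, an aldo-keto reductase, had 82.9 ± 7.1 CPM in NZO/HlLtJ and 6.14 ± 1.18 CPM in A/J, and Akr1c12 had 40.1 ± 2.05 CPM in 129S1/SvImJ and 1.42 ± 0.212 CPM in PWK/PhJ.

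Of 38 genes of retinoid metabolism, 32 were tested and 28 passed, with a median ratio of 3. In A/J 10 were higher and 5 lower (all genes 15.9% and 11.6%), unlike the lists above, in which more genes were lower than higher there. In WSB/EiJ 14 were higher and 1 lower (15.5% and 9.25%), in NZO/HlLtJ 3 were higher and 10 lower (14.8% and 12.9%), and in CAST/EiJ 8 were higher and 12 lower (20.1% and 17.8%). The summed hepatocyte markers, mostly albumin, were 228753 to 260734 CPM in WSB/EiJ and 106988 to 120074 CPM in CAST/EiJ, beside the A/J and NZO/HlLtJ values (241492 to 329138 and 119689 to 123709 CPM). Their mean log2 CPM was 12.59 in WSB/EiJ, 12.33 in A/J, 11.65 in NZO/HlLtJ and 11.56 in CAST/EiJ. The summed stellate cell markers were 82 to 128.1 CPM in WSB/EiJ, 96 to 169 CPM in A/J, 32.6 to 78.9 CPM in CAST/EiJ and 34.7 to 61 CPM in NZO/HlLtJ. The list itself holds the hepatocyte marker Ttr and the stellate cell marker Lrat, and the part of these cells in its counts was not tested. Rdh11, which reduces retinaldehyde to retinol, had 168.3 ± 17.5 CPM in NOD/ShiLtJ and 14.3 ± 1.03 CPM in CAST/EiJ. Among retinol dehydrogenases of a family of close copies, Rdh9 had 114.6 ± 28.4 CPM in NOD/ShiLtJ and 1.98 ± 1.02 CPM in WSB/EiJ, Rdh16 had 212.2 ± 38.2 CPM in C57BL/6J and 22.2 ± 6.07 CPM in PWK/PhJ, and Rdh16f2 had 444.2 ± 25.6 CPM in WSB/EiJ and 58.4 ± 13.2 CPM in PWK/PhJ. The counts of Rdh9, Rdh16 and Akr1c12 were not whole in 27 libraries, those of Rdh16f2 in 26 and those of Aox1 in 16, so their division from their copies is uncertain.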

How the data were processed

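RNA sequencing of hepatocytes from 9 strains was available as a single table, in which the authors deposited estimated counts (expected counts) per Ensembl gene, not scaled to depth; 14.7% of values were not whole numbers. Libraries were made with a kit that selects polyadenylated RNA, per the labels' protocols. The submitters' processing notes name GRCm38, FastQC 0.11.5 and DESeq2; the aligner, the counting program and the use of strand are not given in the sources used here. Symbols and coordinates come from GENCODE M21 (GRCm38), which named 42462 of 43346 IDs; promoters come from RefSeq, which had an entry for all members but Aldh2.

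Counts were rounded and tested in R 4.3.3 with edgeR 4.0.16 (filterByExpr by strain, TMM, glmQLFit and glmQLFTest, strain as the only factor, 27 libraries); the script was tested on simulated data. Over 14482 genes, p-values were adjusted by Benjamini and Hochberg, for the 36 pairs of strains over all genes and pairs together, and called under 0.05. Log2 CPM used a prior count of 2. Library totals ran from 17015956 to 35078511, and PCR copies are not independent molecules. Replicates of a strain differed by more than counting noise in all 27 pairs (chi-square per degree of freedom 23.7 to 129). The labels do not say how replicates were kept apart beyond calling them biological, so p-values measure the spread between these libraries.

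The members, gene lists and tests were chosen with earlier results of these data known. Named genes were all 10 members; list genes averaging at least 10 CPM, called, and with at least a 4-fold range of strain means (at most 4 a list, largest F first); and the 2 genes most like each member over strain means, of which the first is printed. Adhfe1, the only gene of its list that was tested, and Adh6-ps1 were named outside this rule. Alternatives were DESeq2 1.42.0, other scalings and filters, unrounded counts, a replicate block, removal of GC trends, marker covariates, the summed paralogs, and leaving out each library. No sample was left out.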

Additional observations from a re-analysis of the deposited data

How the results depend on the processing

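All 10 members kept a strain effect at an adjusted p under 0.05 in edgeR under every alternative run, and by DESeq2 (9 of 9 with Aldh1a1 and Aldh1a7 summed). Of the 90 differences of a strain from the other 8, 32 passed; the count was 26 to 35 under the alternatives that kept all libraries and both paralogs, and 25 of 81 with the paralogs summed. Of the 360 comparisons of strain pairs, 126 passed, and 104 to 139 did so under those alternatives and 107 with the paralogs summed; without single libraries the counts were 27 to 34 and 115 to 137. Each difference that had passed was recomputed: 270 of 298 recomputed values stayed past the threshold, 26 missed it in the same direction, 1 missed it at a difference of 0 (Aldh1a7 of NOD/ShiLtJ with the paralogs summed), and 1 turned, the higher Aldh1a7 of PWK/PhJ, which was -0.61 once its counts were summed with those of Aldh1a1. Aldh1a1, the other part of that sum, was lower in PWK/PhJ (-1.25). The part of the division of reads between the copies in that turn was not tested. Leaving out each library kept 813 of 864 values past the threshold, missed it in 51 and turned none. Replicate numbers did not pair libraries: 76 same-numbered pairs of libraries from different strains had a mean correlation of 0.01 (from -0.29 to 0.28), and 7 of 27 libraries correlated best with their own number. With the replicate number as a block, 26 of the 90 differences and 108 of the 360 pair comparisons passed; the block ended the calls of Adh7 in WSB/EiJ, Aldh1a1 in DBA/2J, Aldh1a7 in 129S1/SvImJ, Aldh3a2 in CAST/EiJ, Aldh8a1 in NZO/HlLtJ and Aldh9a1 in C57BL/6J. The marker covariates gave 27 and 104. Beside the calls named above, they ended those of Aldh8a1 in NZO/HlLtJ (0.14) and Aldh9a1 in 129S1/SvImJ (0.23). The call of Aldh9a1 in C57BL/6J was also lost with the GC trend removed (0.24). With no filter on low counts it was 0.26 and missed, as did Aldh9a1 in 129S1/SvImJ (0.31) and Aldh8a1 in NZO/HlLtJ (0.3). With no filter on low counts the median of all genes moved to -0.11 in 129S1/SvImJ and -0.12 in CAST/EiJ. The calls lost most often were the higher Aldh9a1 of C57BL/6J (0.27) and Aldh8a1 of NZO/HlLtJ (0.28), both small. Depth limits Adh7 most, with 69 to 361 counts a library, while the lowest count of any other member in a library was 877.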
